A study of Mus musculus with 6 samples.

Results

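Scx, Mkx, Tnmd, Comp and Thbs4 are 5 genes that mark the tendon lineage, and they were chosen by symbol from the 16671 genes of the table. All 5 were measured, and none was removed by a filter on low values. They were read here in FAPs (fibro-adipogenic progenitors), a stromal cell type of the muscle interstitium, after exposure to the complement protein C1q.

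Tendon cells descend from progenitors that switch on scleraxis, a basic helix-loop-helix transcription factor encoded by Scx, and the homeobox factor mohawk, encoded by Mkx, acts beside it to sustain the collagen programme of tendon. Tenomodulin, the product of Tnmd, is a membrane glycoprotein of maturing tendon cells and is a known downstream gene of scleraxis. Cartilage oligomeric matrix protein (Comp) and thrombospondin 4 (Thbs4) are homologous pentameric glycoproteins of the thrombospondin family that bind collagen in tendon, and Comp is abundant in cartilage as well. FAPs are not tendon cells, but they build connective tissue matrix and share many matrix genes with them.

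The cells were purified by flow cytometry from hindlimb muscle of wild-type mice aged 4 to 5 months, with 1 genotype throughout, and were then treated with vehicle alone or with C1q (100 µg/ml). Each group held 3 libraries, made by low-input SMART-Seq cDNA synthesis from 10 ng of total RNA. The length of the exposure is not given in the sources used here. The labels name the cell type as FAPs, whereas their extraction text names muscle stem cells, and they do not say whether replicates were separate mice or cultures, so every p-value reflects the spread among these 6 libraries alone, and that spread could be technical.

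The reads assigned to genes numbered 24046020 to 38861152 in 5 libraries and 5379209 in vehicle replicate 3, the shallowest, in which 1 read was worth 4.25 units of the normalised read count against 0.583 to 0.975 in the others. The FAP markers Pdgfra, Ly6a, Thy1 and Dpt were present in every library, and of 10 FAP markers 7 were called higher with C1q and 1, Pdgfrb, lower (-0.51, limma-trend adjusted p = 0.0115, and 0.0501 without C1q replicate 2). Over all genes, 19.7% were called higher and 18.7% lower. Their summed level was 231819 to 271003 with vehicle and 350049 to 450276 with C1q, mostly from Col1a1, which is also a tendon matrix gene. Skeletal muscle transcripts were present too: 9 muscle markers summed to 55514, 32327 and 15678 in vehicle replicates 1, 2 and 3 and to 10519.5, 15477 and 13389 in the C1q replicates, although Pax7, the defining muscle stem cell marker, was at most 7.58. Mitochondrial genes held 3.98% to 5.29% of the normalised count with vehicle and 1.85% to 2.25% with C1q. The part of these differences in the results below was not tested.

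The promoters of Tnmd and Thbs4, those of the 5 genes that could be shown from the sequence table used, are given because the E-box, CANNTG, is the hexamer that scleraxis and other basic helix-loop-helix proteins bind. Each window covers the 220 bases that end 31 bases before the RefSeq start of the gene, 5′ to 3′ on the gene's strand, with build GRCm38.p6. Gene positions given below are from GENCODE, whose start of Tnmd (133850980) lies upstream of the RefSeq start and just after the window. The Tnmd window is chrX:133850758-133850977 on the plus strand, and the Thbs4 window is chr13:92794849-92795068 on the minus strand. Capitals mark the E-box, whose pattern reads alike on both strands.
Tnmd: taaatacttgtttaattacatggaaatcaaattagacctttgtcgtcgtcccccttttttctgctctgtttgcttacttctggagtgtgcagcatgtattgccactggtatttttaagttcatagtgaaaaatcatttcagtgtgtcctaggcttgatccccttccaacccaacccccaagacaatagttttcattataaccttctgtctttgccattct
Thbs4: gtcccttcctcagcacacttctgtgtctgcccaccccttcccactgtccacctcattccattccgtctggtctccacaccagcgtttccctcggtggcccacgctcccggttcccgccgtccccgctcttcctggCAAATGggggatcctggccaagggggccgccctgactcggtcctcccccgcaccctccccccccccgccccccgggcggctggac
The Tnmd window held no E-box, and the Thbs4 window held 1, CAAATG, which starts 115 bases before the gene. Among 32841 promoter windows of the same length, 20405 (62.1%) held at least 1 E-box, with a median of 1 per window. Neither window held the letters TATAAA. These are matches of letters in a short window, and binding was not measured.

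With C1q, Scx fell 2.31-fold, Tnmd rose 6.09-fold and Comp rose 3.44-fold, while Thbs4 was 2.86-fold and Mkx 1.80-fold higher on average without passing the test. The test was limma-trend on log2(normalised read count + 1) with Benjamini-Hochberg adjustment over all 16671 genes and a threshold of 0.05, and fold changes refer to that scale. It called 3 of the 5 genes, against 38.3% of all genes. The 2 rises stand against a background of 19.7% of genes called higher, and the 1 fall against 18.7% called lower. The libraries of the groups did not overlap for the same 3 genes, 2 of them higher with C1q, which held for 26.8% of all genes, and 1 lower, which held for 25.4%. A large share of the transcriptome was thus called, and nothing particular to these genes is read from the count. The median difference over the 5 genes was 1.52 (log2), against 0.03 over all genes. In bulk RNA, fewer cells that express a gene and less of its RNA per cell cannot be told apart.

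**Figure D1:**
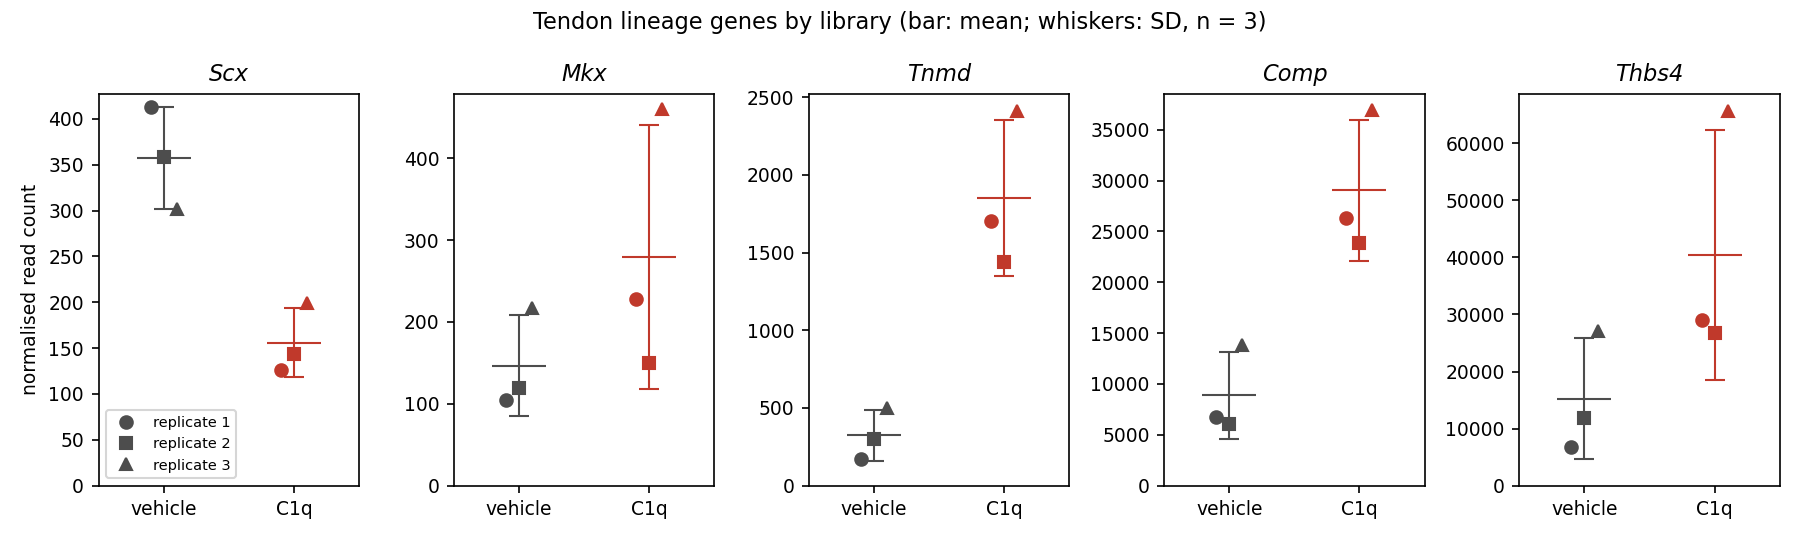
Normalised read count (y axis, linear, from 0) of each gene in the 3 vehicle and 3 C1q libraries, with a symbol per replicate number, a bar at the mean and whiskers of 1 SD (n = 3). Scx is lower and Tnmd and Comp are higher in every C1q library than in any vehicle library, whereas the groups overlap for Mkx and Thbs4.

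Scx (Entrez gene 20289) lies on chromosome 15 at 76457452 to 76459458 on the plus strand (GRCm38) and has 2 exons. Its normalised read count was 413, 358 and 302 in vehicle replicates 1, 2 and 3, and 126, 143 and 199 in the C1q replicates. Every C1q library was below every vehicle library, and the gap ran from 199 to 302. The means were 358 ± 55.4 and 156 ± 37.9 (SD, n = 3 each), a difference of -1.21 ± 0.19 (log2 ± SE) with a 95% interval of -1.66 to -0.75 (limma-trend, adjusted p = 0.00248). The value of the shallow vehicle library rests on 71 reads, and those of the other 5 libraries rest on 147 to 708. With a loess trend on transcript length removed, the fall was smaller, -0.77, and still passed (limma-trend, adjusted p = 0.0215). Scx lies inside Bop1, a ribosome biogenesis gene on the opposite strand, and shares no exon with it. Bop1 fell as well, with 1429, 1135 and 1207 in the vehicle libraries and 882, 800.2 and 909.9 in the C1q libraries, a smaller difference of -0.54 (limma-trend, adjusted p = 0.00497). Whether counting used strand is not stated, so unspliced Bop1 reads over Scx exons cannot be told apart from Scx reads.

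Mkx (Entrez gene 210719), with 7 exons on the minus strand of chromosome 18 at 6934518 to 7004780, stood at 104, 119 and 217 in the vehicle libraries and at 228, 150.1 and 460.2 in the C1q libraries. The groups overlapped, because C1q replicate 2 was below vehicle replicate 3. The means of 147 ± 61.2 and 279 ± 161 (SD, n = 3 each) differed by 0.84 ± 0.43 (log2 ± SE), with an interval of -0.15 to 1.84 that includes 0 (limma-trend, adjusted p = 0.161). C1q replicate 3 carried much of the difference, which was 0.41 without that library (limma-trend, adjusted p = 0.432). With the replicate number as a block limma-trend called the rise (adjusted p = 0.0116, higher in 3 of 3 pairs), as did DESeq2 on the recovered reads, at 0.98 (adjusted p = 0.0308). Vehicle replicate 3 gave 51 Mkx reads, so its value is the least precise.

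Both transcription factors were set against each other per library. The level of Mkx per kilobase of transcript, divided by that of Scx, was 0.0717, 0.0941 and 0.204 with vehicle and 0.512, 0.297 and 0.657 with C1q. Scx therefore stood above Mkx per kilobase in all 6 libraries, and every C1q ratio was above every vehicle ratio.

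Tnmd (Entrez gene 64103) lies on the plus strand of the X chromosome at 133850980 to 133865577 and has 7 exons. It was counted at 172, 303 and 497 in the vehicle libraries and at 1706, 1437 and 2412 in the C1q libraries. The lowest C1q library was well above the highest vehicle library. The means of 324 ± 164 and 1851 ± 504 (SD, n = 3 each) differed by 2.61 ± 0.36 (log2 ± SE), with an interval of 1.76 to 3.46 (limma-trend, adjusted p = 0.00139). The rise passed in all 17 alternative settings, at 2.22 to 2.98. Tnmd per kilobase divided by Scx per kilobase was 0.319, 0.648 and 1.26 with vehicle and 10.3, 7.67 and 9.28 with C1q. Tnmd was thus below Scx in 2 of 3 vehicle libraries and far above it in each C1q library.

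Comp (Entrez gene 12845) has 19 exons on the plus strand of chromosome 8 at 70373558 to 70382066. Its normalised read count was 6797, 6072 and 13824 with vehicle and 26365, 23876 and 36941 with C1q. Vehicle replicate 3 was well above the other vehicle libraries and yet below all C1q libraries. The means of 8898 ± 4282 and 29061 ± 6937 (SD, n = 3 each) differed by 1.78 ± 0.31 (log2 ± SE), with an interval of 1.05 to 2.51 (limma-trend, adjusted p = 0.00358). Comp passed in all 17 alternative settings, at 1.56 to 2.15.

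Thbs4 (Entrez gene 21828) has 22 exons on the minus strand of chromosome 13 at 92751590 to 92794818. It stood at 6709, 11909.7 and 27049.7 in vehicle replicates 1, 2 and 3 and at 28969, 26704 and 65673 in the C1q replicates. The groups overlapped at a single point, since vehicle replicate 3 was just above C1q replicate 2. The means of 15223 ± 10568 and 40449 ± 21874 (SD, n = 3 each) differed by 1.52 ± 0.53 (log2 ± SE), with an interval of 0.29 to 2.75 (limma-trend, adjusted p = 0.0556). Without vehicle replicate 3 the difference was 2.05 and passed (limma-trend, adjusted p = 0.00804), and over all 17 alternative settings the adjusted p was 0.00128 to 0.163.

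The libraries of replicate number 3 stood apart for these genes. C1q replicate 3 was the highest C1q library for all 5 genes, and vehicle replicate 3 was the highest vehicle library for 4 of them and the lowest for Scx. Differences were therefore also taken within same-numbered libraries, with the replicate number as a block in limma-trend. Scx differed by -1.70, -1.32 and -0.60 (log2) in pairs 1, 2 and 3, Tnmd by 3.30, 2.24 and 2.28, and Comp by 1.96, 1.98 and 1.42. Mkx differed by 1.12, 0.33 and 1.08, and Thbs4 by 2.11, 1.16 and 1.28. Every pair had the same sign for each gene. With the block, limma-trend called all 5 genes against 41.0% of all genes, and the adjusted p was 0.00479 for Scx, 0.0116 for Mkx, 4.08e-04 for Tnmd, 3.41e-04 for Comp and 0.00128 for Thbs4. The labels do not say that the numbers mark a shared animal or day.

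**Figure D2:**
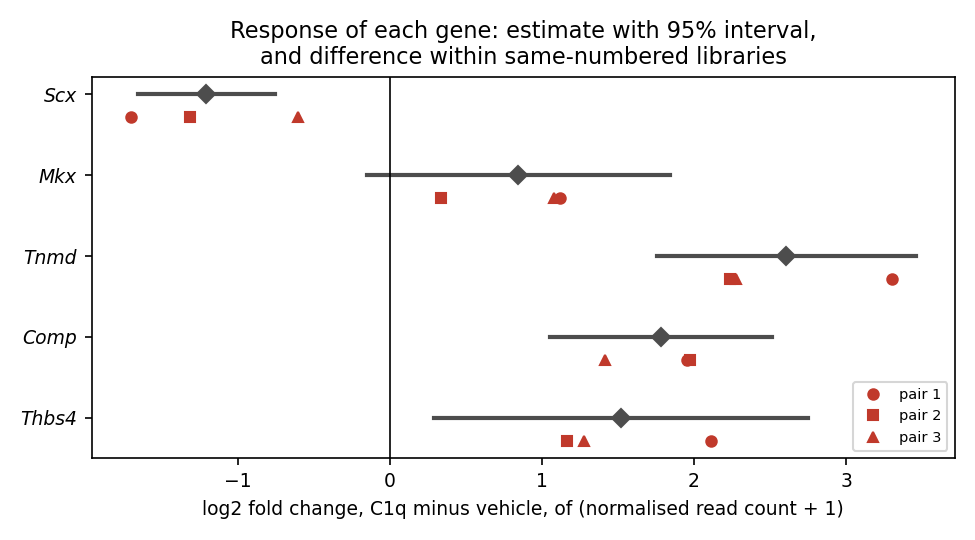
Log2 fold change (x axis, C1q minus vehicle, of the normalised read count + 1) of the 5 genes, with the estimate and its 95% interval above and the difference in each of the 3 same-numbered pairs below. Scx lies left of 0, Tnmd, Comp and Thbs4 lie right of it, and the interval of Mkx crosses 0 although its 3 pairs are all to the right.

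Levels per kilobase of transcript put the 5 genes in order. In the vehicle libraries the mean normalised read count per kilobase was 4760.1 for Thbs4, 3683 for Comp, 345 for Scx, 240 for Tnmd and 40.2 for Mkx. The libraries of Thbs4 and Comp overlapped, as did those of Scx and Tnmd, so neither of these neighbours differed beyond its spread. In the C1q libraries the means were 12648 for Thbs4, 12028 for Comp, 1368 for Tnmd, 151 for Scx and 76.5 for Mkx. Thbs4 and Comp overlapped again, and so did Scx and Mkx, while Tnmd stood clear of both neighbours. Averaged over the libraries, Thbs4 and Comp were at percentiles 99.1 and 99.0 of all genes with a known length, Tnmd at 88.5, Scx at 66.9 and Mkx at 38.3. The 2 thrombospondin family members were thus among the most abundant transcripts of these cells. Of the transcription factors, Scx was above the middle of that ranking and Mkx below it.

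The thrombospondin family was followed through the relatives of Comp and Thbs4. Thbs1, a matricellular protein known for activating latent TGF-β, stood at 24125, 25120.4 and 37291 with vehicle and at 112986, 124553 and 150052 with C1q, a rise of 2.18 (limma-trend, adjusted p = 3.43e-04). Thbs2 went from 43633 ± 8313 to 64668 ± 15286 (SD, n = 3 each; difference 0.56, limma-trend adjusted p = 0.0682), and Thbs3, the other pentameric relative in the table, from 1836 ± 661 to 2002 ± 148 (difference 0.19, adjusted p = 0.565). Of these 3 relatives, 1 passed the test. Thbs2 was called by DESeq2 (adjusted p = 0.00700), limma-voom (adjusted p = 0.0354), limma-trend with the replicate block (adjusted p = 0.0104) and limma-trend without vehicle replicate 1 (adjusted p = 0.0398). Exons of Thbs1 and Thbs3 overlap a gene on the other strand, as do those of Bop1, Col5a1, Prg4, Tnc, Tgfb3, Sox5, Pdgfra, Des and Abcc9, so their counts are less certain. Cnmd, which encodes chondromodulin, the homologue of tenomodulin, was near 0, with 0.583, 1.54 and 0 with vehicle and 0, 4.87 and 3.74 with C1q, so the relative of Tnmd was hardly detected in either group. Tcf15, the homologue of Scx, was not among the genes of the table.

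Other matrix genes of tendon were described from a list of 22, all measured. Of these, 12 rose, none fell and 10 did not pass, with a median difference of 1.04, against 19.7% of all genes called higher and 18.7% lower. The 6 with the lowest p included Col11a1 and Col12a1, a fibrillar and a fibril-associated collagen. Col11a1 went from 1348 ± 303 to 3739 ± 412 (difference 1.49, limma-trend adjusted p = 4.99e-04) and Col12a1 from 3819 ± 1395 to 20523 ± 4339 (difference 2.47, adjusted p = 5.25e-04). Cilp, a secreted matrix protein that restrains TGF-β signalling, rose from 21064 ± 8391 to 83615 ± 1905 (difference 2.06, adjusted p = 7.32e-04), and Lum, a small leucine-rich proteoglycan, from 1552 ± 832 to 7490.4 ± 1963 (difference 2.36, adjusted p = 0.00172). The collagen V genes rose less, Col5a1 by 0.97 (adjusted p = 0.00320) and Col5a2 by 0.66 (adjusted p = 0.00375). Both lost the call with the length trend removed, at 0.45 (adjusted p = 0.0745) and 0.25 (adjusted p = 0.140).

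Several tendon matrix genes showed the high values in replicate 3 seen for Thbs4. They were picked out after their values were seen. Fmod, a collagen-binding proteoglycan, stood at 2239, 5339 and 7622 with vehicle and at 19634, 16037 and 27565 with C1q (difference 2.19, limma-trend adjusted p = 0.00542), and its groups did not overlap. Kera, another proteoglycan of the same family, stood at 3.50, 26.3 and 89.3 and at 229, 262 and 1514 (difference 4.34, adjusted p = 0.0189), and the call was lost without C1q replicate 3 (difference 3.46, adjusted p = 0.0619), with limma-voom (difference 5.23, adjusted p = 0.0528) and in thinned libraries (difference 5.30, adjusted p = 0.0585), where the difference was larger. Prg4, the lubricant of gliding surfaces, overlapped between groups, at 4934, 2759 and 12838 against 10390.5, 5958 and 17769 (difference 0.88, adjusted p = 0.268). Angptl7, a secreted angiopoietin-like protein, overlapped as well, at 109.5, 605 and 1152 against 859, 1352 and 3266 (difference 1.87, adjusted p = 0.120). Angptl7 lies inside the gene Mtor. Whether counting used strand is not stated, so unspliced Mtor reads over Angptl7 exons cannot be told apart from Angptl7 reads. With the replicate block limma-trend called both Prg4 (adjusted p = 0.00282) and Angptl7 (adjusted p = 0.00429), and without vehicle replicate 3 it did so too (adjusted p = 0.0347 for each). The other 3 of the 22 genes were lower on average, and none passed limma-trend. Col1a2, a chain of collagen I, was lower in every C1q library than in any vehicle library (313379 ± 38168 to 231187 ± 26532, difference -0.44, adjusted p = 0.179), and it was called lower by edgeR (adjusted p = 0.0493), DESeq2 (adjusted p = 0.00242) and limma-voom (adjusted p = 0.0227). Tnc, the glycoprotein tenascin-C, differed by -0.16 (adjusted p = 0.648), and by 0.12 without vehicle replicate 3. Tppp3, a marker of the tendon sheath, differed by -0.73 (adjusted p = 0.125), and it was called lower by edgeR (adjusted p = 0.0347), DESeq2 (adjusted p = 0.0194), limma-voom (adjusted p = 0.0115), and limma-trend with the replicate block (adjusted p = 0.0334) or without vehicle replicate 3 (adjusted p = 0.00811).

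**Figure D3:**
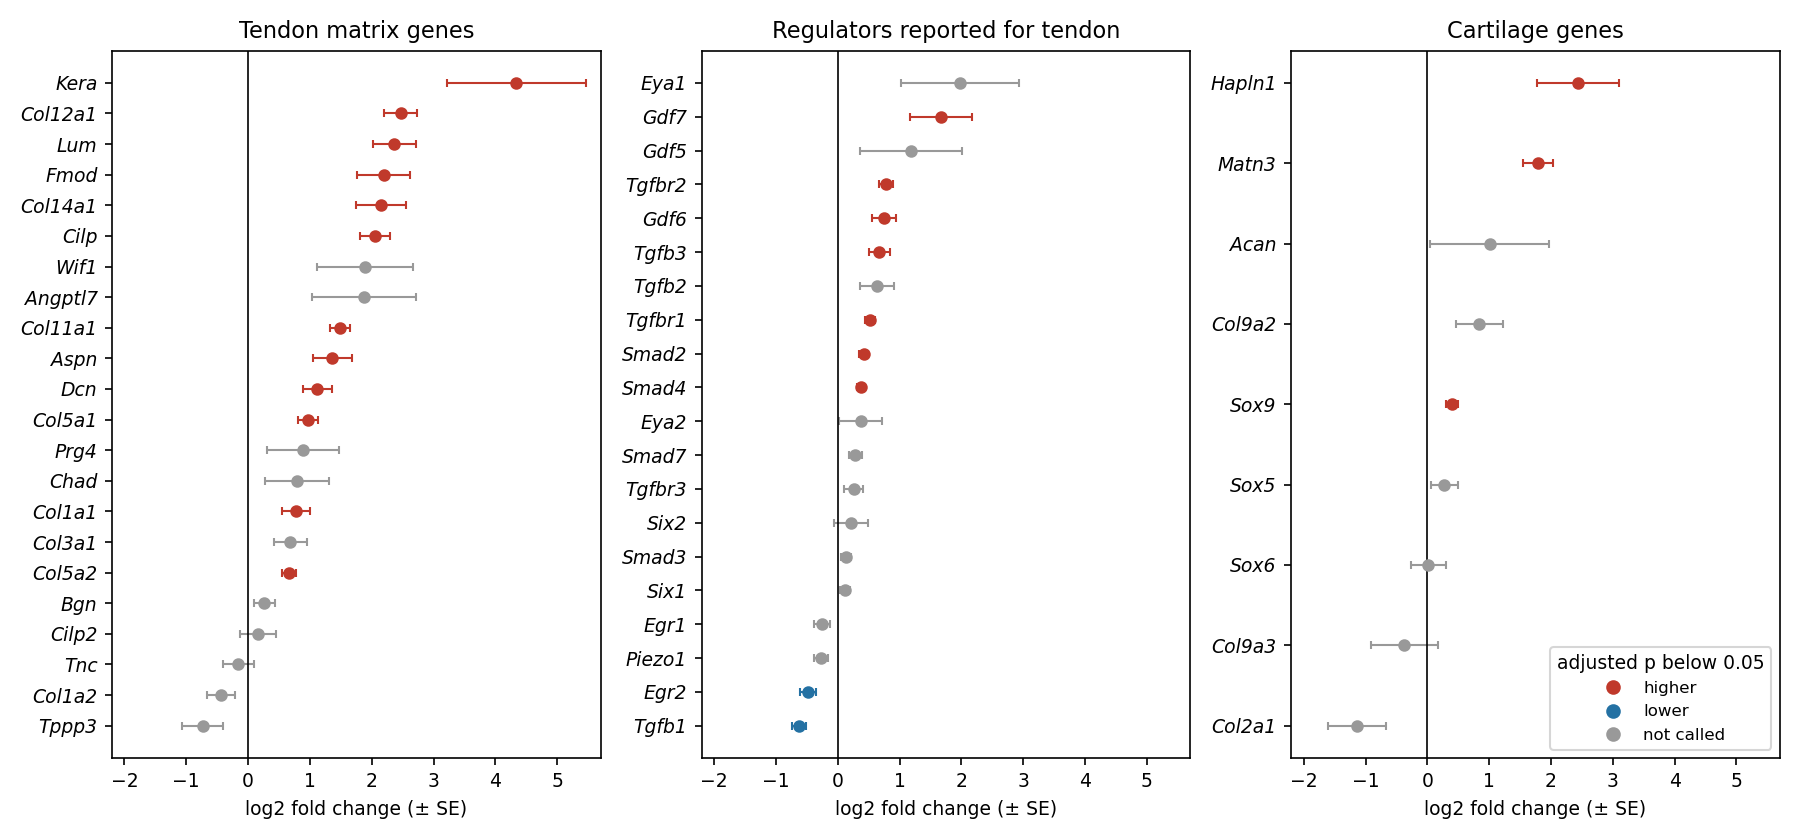
Log2 fold change with its SE (x axis, C1q minus vehicle) of each measured gene of the tendon matrix, tendon regulator and cartilage lists, coloured by whether limma-trend called it higher, lower or not. The tendon matrix genes called all lie right of 0 (12 of 22), and the regulators called lie on both sides (7 higher and 2 lower of 20).

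Regulators reported for tendon cells were given by a list of 20, all measured, of which 7 rose, 2 fell and 11 did not pass, with a median difference of 0.37. The 9 called of 20 stand against 38.3% of all genes called, so nothing particular to the list is read from the count. TGF-β signalling is the pathway best known for inducing Scx. Its receptor genes Tgfbr2 and Tgfbr1 rose by 0.79 (6863 ± 994 to 11771 ± 768, limma-trend adjusted p = 0.00154) and 0.52 (1041 ± 48.0 to 1496 ± 140.3, adjusted p = 0.00275). The signal transducers Smad4 and Smad2 rose by 0.37 (adjusted p = 0.00261) and 0.42 (adjusted p = 0.00442). Of the ligands, Tgfb1 fell by 0.63 on the log2 scale (1873 ± 237 to 1213 ± 150.1, adjusted p = 0.00536), and Tgfb3 rose by 0.67 (2409 ± 548 to 3792 ± 484, adjusted p = 0.0195). The call of Tgfb3 was lost without C1q replicate 1 (adjusted p = 0.0510) or C1q replicate 2 (adjusted p = 0.0717). With the length trend removed, Tgfbr2 (0.29, adjusted p = 0.0905) and Tgfbr1 (0.18, adjusted p = 0.111) did not pass and Smad2 was at -0.080 (adjusted p = 0.413), so the direction of Smad2 flips with that scaling.

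Since Comp is also a cartilage gene, 11 cartilage genes were read, of which 9 were measured. Of these, 3 rose, none fell and 6 did not pass, with a median difference of 0.40. The 3 called of 9 again stand against 38.3% of all genes called. Matn3, a cartilage matrix protein, rose from 15.7 ± 2.70 to 56.1 ± 2.99 (difference 1.79, limma-trend adjusted p = 0.00121), and Sox9, the chondrogenic transcription factor, from 1620.3 ± 76.4 to 2152 ± 254 (difference 0.40, adjusted p = 0.0124). Sox9 did not pass with the length trend removed (0.23, adjusted p = 0.0975). Hapln1, which links aggrecan to hyaluronan, was called (adjusted p = 0.0221) on 0, 3 and 0 reads with vehicle and 7, 12 and 8 with C1q, and so rests on very few reads, and its call was lost without vehicle replicate 1 or without any 1 of the C1q libraries (adjusted p = 0.0512 to 0.0962). In thinned libraries neither Matn3 (adjusted p = 0.0647) nor Hapln1 (adjusted p = 0.239) passed. Of the defining cartilage genes, Acan, the aggrecan gene, had at most 6 reads in any library. Col2a1, the collagen II gene, was low but detected in every library and stood at 26.2 ± 13.0 with vehicle and 10.7 ± 3.44 with C1q (difference -1.14, adjusted p = 0.0935). Col2a1 was called lower by edgeR (adjusted p = 0.0193), DESeq2 (adjusted p = 0.0308), limma-voom (adjusted p = 0.0177), and limma-trend with the replicate block (adjusted p = 0.0366) or without vehicle replicate 3 (adjusted p = 0.0139). Col9a2, a collagen IX chain, differed by 0.84 (adjusted p = 0.116) and Sox5 by 0.28 (adjusted p = 0.356), and Sox5 was at -0.17 with the length trend removed. Without vehicle replicate 3 both were called higher (limma-trend, adjusted p = 0.0332 and 0.0133), as they were by limma-voom (adjusted p = 0.0413 and 0.0418).

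The muscle transcripts moved with the groups, and 6 of the 9 measured muscle markers were called lower with C1q and none higher. The shares over all genes were 18.7% lower and 19.7% higher. Vehicle replicate 3 and C1q replicate 2, picked out after their values were seen, had nearly equal sums of these markers, 15678 and 15477. Those sums are mostly Acta1 (7792 and 8580.5) and Des (4073 and 4165), and other markers were not alike, such as Myod1 (451 and 271) and Chrna1 (2257 and 1684). In these 2 libraries Scx stood at 302 and 143, Tnmd at 497 and 1437, Comp at 13824 and 23876, Thbs4 at 27049.7 and 26704, and Mkx at 217 and 150.1. With 1 library per group these are values without a replicate check, and the part of muscle RNA in the changes of the 5 genes was not tested. The 2 libraries also differ in replicate number, and in same-numbered pairs Thbs4 and Mkx were higher with C1q in 3 of 3. Vehicle replicate 3 gave only 71 Scx reads and 51 Mkx reads.

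**Figure D4:**
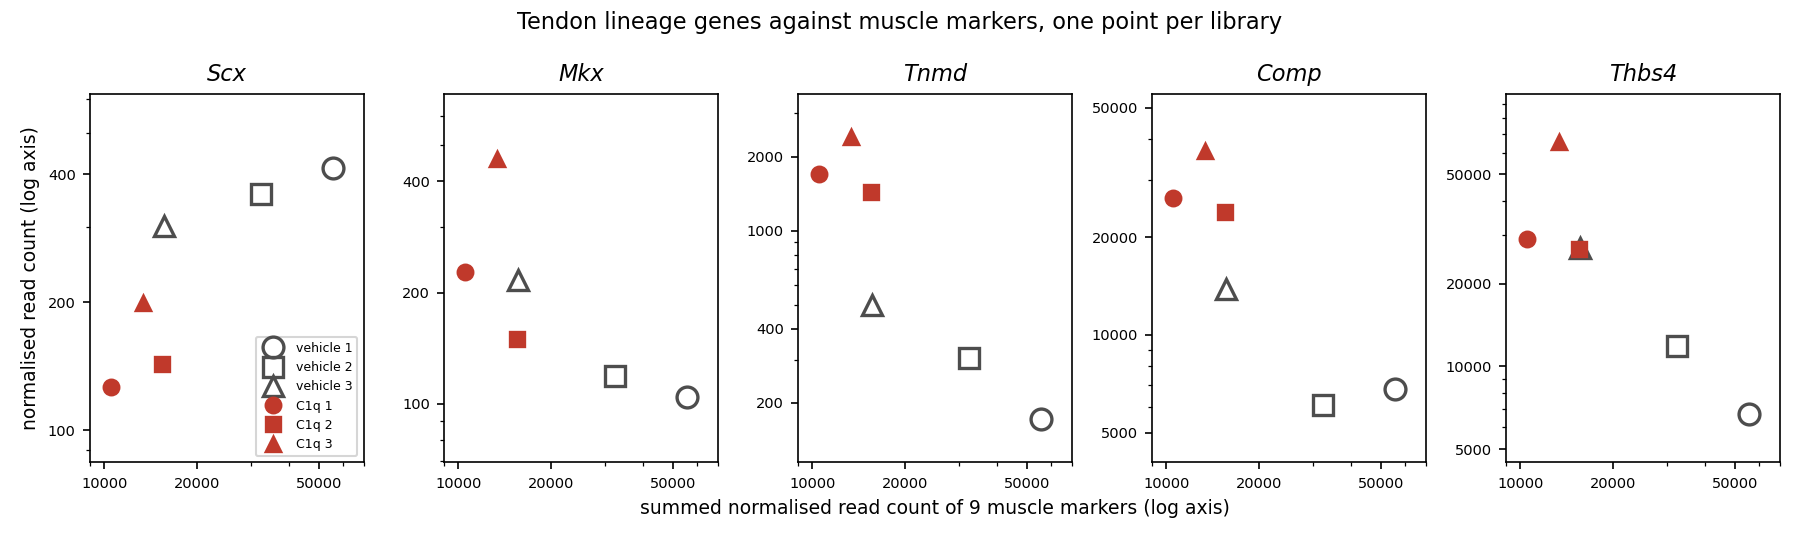
Normalised read count of each gene (y axis, log scale) against the summed normalised read count of 9 muscle markers (x axis, log scale), with 1 point per library, open symbols for vehicle and filled symbols for C1q. Vehicle 3 (open triangle) lies at nearly the same marker sum as C1q 2 (filled square), with which it coincides for Thbs4. Of these libraries, which differ in replicate number, the C1q library is lower for Scx and Mkx and higher for Tnmd and Comp.

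Markers of 4 other cell types were summed in the same way. Endothelial markers summed to 612 to 1330 with vehicle and 582 to 1281 with C1q. Immune markers, 5 of 6 measured, summed to 391 to 667 and 279 to 358. Those sums were mostly Tek (506 to 963 with vehicle, 480 to 1175 with C1q) and Cd14 (293 to 570 and 229 to 270). None of the 6 endothelial markers was called. Of the 5 immune markers 1 was called, Cd14, lower (limma-trend, adjusted p = 0.0436). Pecam1, Cdh5 and Tie1 were highest in vehicle replicate 2, where Cdh5 stood at 160 against 26.8 and 29.8 in the other vehicle libraries. Tek, Kdr and Emcn were not highest there. Mural cell markers summed to 2109 to 2665 with vehicle and 3805 to 5778 with C1q, with 2 of 6 called higher, Abcc9 and Kcnj8, while Rgs5 was at most 6.72. Schwann cell markers summed to 260 to 557 and 583 to 679, with 3 of 6 called higher. For comparison, 19.7% of all genes were called higher and 18.7% lower. The median difference was 1.08 for the mural list and 0.95 for the Schwann list, against 0.03 over all genes. With 6 genes per list and no set test, nothing particular to the mural or Schwann lists is read from these values. The part of these cells in the changes of the 5 genes was not tested.

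The genes whose profiles were most like those of the 5 genes were found by Pearson's r of log2 values over the 6 libraries, which share the same group difference and depths. Tnmd was most like Angptl1 (r = 0.999), an angiopoietin-like secreted protein gene, and Thbs4 was most like Tnfrsf11b (r = 0.999), which encodes osteoprotegerin. Scx was most like Itpa (r = 0.998), Comp was most like Ncoa6 (r = 0.998), and Mkx was most like Pitpnm2 (r = 0.974). After the group means were taken out, Tnfrsf11b remained the gene most like Thbs4 (r = 0.999), and the closest to Tnmd, Comp, Scx and Mkx were Sgf29 (r = 0.997), Zfp189 (r = 0.999), Ccdc86 (r = 0.995) and Gstm6 (r = 0.997). They were the closest of 12307 candidate genes over only 6 points, so these values are descriptions.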

How the data were processed

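Per the file headers and the labels, the deposited table holds 1 column for each of 6 libraries. Per the submitters' processing notes, the authors used build mm10 with HISAT2, Trimmomatic, featureCounts and DESeq2, whose versions and strand setting the sources used here do not give. The deposited values are a normalised signal per Entrez gene, the read count over a size factor of the library. All of them (100.0%) were whole multiples of 1 read's worth within 0.001, so reads were recovered. Because the values are normalised, limma-trend (limma 3.58.1, R 4.3.3) on log2(value + 1) was the main test, laid down for that case in place of a count test. Replicates differed beyond sampling noise (chi-square per degree of freedom 16.5 to 40.3).

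The 5 genes and all lists were chosen with earlier results of these data known. Named genes are the 5 genes, their homologues, the 6 lowest p-values per tendon or cartilage list and the most alike profiles, plus Fmod, Kera, Prg4, Angptl7, Col1a2, Tnc, Tppp3, Acan, Pdgfrb and Bop1, named after their values were seen. Other cell type markers named singly were also picked from their lists. Alternative settings were read for 36 named genes, without Acan, the most alike profiles and the cell type markers other than Pdgfrb. Symbols were found for 16077 of 16671 IDs through RefSeq. Lengths, of the longest coding transcript in GENCODE vM21, were found for 15707 (94.2%). RefSeq promoter windows are shown for Tnmd and Thbs4, 2 of the 5 genes. Scx and Comp had no entry among those promoters, and Mkx, on chromosome 18, was left out by rule.

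Replicate numbers were examined for pairing by the correlation of deviations from group means. It was 0.123, 0.175 and 0.132 for same-numbered libraries, and -0.132 to 0.0048 otherwise. The pairing comes from the data, not from the labels, and the block p-values use these same libraries, so they are not independent support for it. Deviations cancel out within a group, so positive same-number values tend to come with negative values elsewhere. Alternatives were pseudocounts of 0.5 and 5, mean filters of 10 and 50, edgeR 4.0.16, DESeq2 1.42.0 and limma-voom on recovered reads, thinning to 5379209 reads, the replicate block, removal of a length trend (loess, span 0.5) and leaving out each library. The fits were also run on simulated data with a single dispersion for all genes and independent libraries. These data need not share those settings, and no result here rests on that run. The level of 1 marker gene is not reported here.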

Additional observations from a re-analysis of the deposited data

How the results depend on the processing

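Scx, Tnmd and Comp kept their direction and passed in all 17 alternative settings, with Scx at -1.39 to -0.77. Over 36 named genes, 546 of 599 alternative values kept direction and side of the threshold, 17 lost the call, 32 gained it and 4 changed sign: Smad2 to -0.080 and Sox5 to -0.17 with the length trend removed, Tnc to 0.12 without vehicle replicate 3 (down to -0.38 with another library left out), and Thbs3 to -0.078 without vehicle replicate 2 (up to 0.45 with another library left out). With the replicate block, which pairs same-numbered libraries, 5 of the 5 tendon lineage genes were called instead of 3. With the length trend removed, over the 15707 genes with a length, 2092 genes were called higher, against 3277 over all genes. For the cartilage list the count of 3 was 1 with a mean of at least 50, 1 in thinned libraries and 5 with limma-voom. Leaving out 1 library gave 2329 to 3659 genes called higher and 2259 to 3583 lower, 3 to 4 of the 5 genes, 11 to 15 tendon matrix genes, 6 to 12 regulators and 2 to 7 cartilage genes, the last without vehicle replicate 3. The causes were not tested. By construction, a stricter filter leaves fewer genes to test, and thinning leaves fewer reads. No setting moved the median of all genes beyond -0.01 to 0.04. In vehicle replicate 3, with 5379209 reads, low genes rest on few reads.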
